A study of Mus musculus with 2 samples.

Results

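The genes that write and erase DNA methylation were examined in ATAC-seq data of mouse embryonic stem cells (mESCs), as the 8 genes Dnmt1, Uhrf1, Dnmt3a, Dnmt3b, Dnmt3l, Tet1, Tet2 and Tet3 of the 21938 protein-coding genes that GENCODE vM21 places on chromosomes 1 to 19, X and Y of mm10. They were chosen by name, and the peaks assigned to them were all those touching the range from 10 kb upstream of the gene to its end, which gave 60 of 116777 peaks. ATAC-seq uses the transposase Tn5 to cut accessible DNA and tag its ends. The cells were of the line EHMT2-dTAG-mcherry, ESCs of BL6/129 hybrid background, in which a degron, HA tags and mCherry were fused to both copies of the histone methyltransferase gene Ehmt2. They grew in serum and LIF, on feeder cells per the methods of the study, and received the vehicle DMSO for 24 h, so that EHMT2 remained present and no other condition is described here. The 2 samples, from 50000 cells each, came from independent clones, and the analysed peak list was made from both together. No value below therefore has a spread between replicates, and no test was possible.

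DNA methylation in mammals sits mainly on the cytosine of CG dinucleotides. DNMT1 copies it to the new strand after replication with the help of UHRF1, DNMT3A and DNMT3B set it at unmethylated sites, and DNMT3L, which has no catalytic activity of its own, stimulates them. TET1, TET2 and TET3 oxidise methylated cytosine and so start its removal. Several of these genes are known to use alternative promoters in oocytes, germ cells, mESCs and differentiated cells, so peaks were looked up at the start of the gene, which is its outermost annotated start, and at the start of every annotated transcript.

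A peak covered the start of at least 1 annotated transcript in all 8 genes, but the start of the gene itself in only 3, Uhrf1, Dnmt3b and Tet2. For Dnmt1, Dnmt3l, Tet1 and Tet3, the accessible starts were internal ones. In Dnmt3a, the first accessible start lay 491 bp after the gene start, and others lay far inside the gene. The sequences at these starts are shown because they carry the regions the results turn on, the promoters that were accessible in mESCs. Each run is the DNA before the first base of the named transcript, up to 120 bases and 5′ to 3′ on the strand of the gene, shortened where an exon of another transcript begins. The runs before Dnmt3a-205, Dnmt3l-201 and Tet3-201 do not hold the summit, or highest point, of their peak. Capitals mark CG dinucleotides, the target of the enzymes encoded here. Sequences are of GRCm38 (mm10) from RefSeq.
Dnmt1-203, chr9:20952624-20952707, minus strand: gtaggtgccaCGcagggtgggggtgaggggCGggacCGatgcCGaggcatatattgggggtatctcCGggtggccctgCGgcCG
Uhrf1-202, chr17:56304193-56304312, plus strand: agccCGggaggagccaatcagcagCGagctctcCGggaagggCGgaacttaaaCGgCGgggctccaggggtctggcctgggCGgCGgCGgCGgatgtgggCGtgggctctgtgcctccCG
Dnmt3a-202, chr12:3806378-3806497, plus strand: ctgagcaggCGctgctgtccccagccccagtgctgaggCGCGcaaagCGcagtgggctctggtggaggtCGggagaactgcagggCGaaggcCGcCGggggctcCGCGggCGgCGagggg
Dnmt3a-205, chr12:3891608-3891727, plus strand: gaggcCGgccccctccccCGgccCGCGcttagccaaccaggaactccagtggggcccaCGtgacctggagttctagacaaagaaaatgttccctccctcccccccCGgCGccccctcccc
Dnmt3l-201, chr10:78049722-78049841, plus strand: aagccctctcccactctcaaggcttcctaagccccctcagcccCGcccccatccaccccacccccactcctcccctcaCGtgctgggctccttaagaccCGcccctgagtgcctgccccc
Tet1-207, chr10:62887325-62887412, minus strand: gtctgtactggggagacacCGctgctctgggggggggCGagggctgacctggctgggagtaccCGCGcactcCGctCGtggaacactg
Tet2-201, chr3:133544391-133544510, minus strand: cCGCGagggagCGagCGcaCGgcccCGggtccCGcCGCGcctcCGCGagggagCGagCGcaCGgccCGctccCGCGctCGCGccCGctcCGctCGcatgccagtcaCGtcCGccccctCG
Tet3-201, chr6:83441679-83441754, minus strand: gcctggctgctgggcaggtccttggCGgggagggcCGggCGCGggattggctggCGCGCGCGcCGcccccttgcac

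The number of CG dinucleotides in these runs ranged from 3 of 120 bases upstream of Dnmt3l-201 to 25 of 120 bases upstream of Tet2-201. The Tet2 run, 82.5% G or C, contained the sequence GCATGCG, part of the site of the factor NRF1, and a GC box, GGGCGG, both on the strand opposite to the one printed. The Uhrf1 run held a CCAAT box and the GC box at 2 places, and 12 CG dinucleotides. Upstream of Dnmt3a-205, the CG dinucleotides numbered 7, and the run held the E-box CACGTG.

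For each peak the deposited list gives the fold enrichment, which is the number of fragments over the summit, the highest point of the peak, divided by the number expected from the local background, with 1 added to both. It also gives a −log10 q, the significance after correction for multiple testing, which is larger for firmer peaks. The fragment number of each peak was recovered from its deposited fold enrichment and significance. Intervals of 95% are exact Poisson intervals of these numbers with the background held fixed, and cover counting error only, not the difference between clones. The list holds 116782 peaks with a median fold enrichment of 3.98 and a median of 9 fragments. Library totals were not analysed here. As a check of the labelled cell type, a peak covered a transcript start in 9 of 10 ESC marker genes, all but Sox2. Their fold enrichments ran from 2.83 to 15.9, with a median of 5.84. Among genes of 2-cell-like cells, 0 of 7 had a covered start. A start was also covered in 6 of 10 fibroblast markers, though not in Col3a1, Postn, Prrx1 or Lum. The fold enrichments of these 6 ran from 4.74 to 10.9, with a median of 5.94. Their fragments ran from 11 to 67 with a median of 15, beside 17 to 151 with a median of 44 at the ESC markers. The gene start was covered in 3 of 10 fibroblast markers and 7 of 10 ESC markers. For genes of early differentiation the count was 9 of 9, and of all protein-coding genes 66.6% had a covered transcript start. A peak at a start thus does not by itself tell these cell types apart. Feeder cells are fibroblasts, and their part in the values below was not tested. In such bulk data, a lower signal in every cell and a signal in fewer cells cannot be told apart.

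Of all protein-coding genes, 59.2% had a peak covering the gene start and 66.6% one covering the start of any transcript. The 8 genes have between 5 and 18 transcripts each, and among the 8639 genes with at least 5 transcripts these shares were 76.2% and 89.2%. The 3 of 8 genes with a peak at the gene start and the 8 of 8 with one at any start are to be read beside these values. A gene start without a peak together with a peak at another transcript start was found in 5 of the 8 genes, and in 12.9% of genes with at least 5 transcripts. Among these 5 is Dnmt3a, whose gene start lay 50 bp from a peak. Of the 77 transcripts of the 8 genes, 40 started inside a peak. After merging starts within 100 bp, 21 of 52 start sites were covered. The shares over all transcripts and start sites of protein-coding genes were not computed, so these counts cannot be called high or low. Transcripts that start close together, such as those of Dnmt3b, count separately among the 77 though they share a peak.

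**Figure D1:**
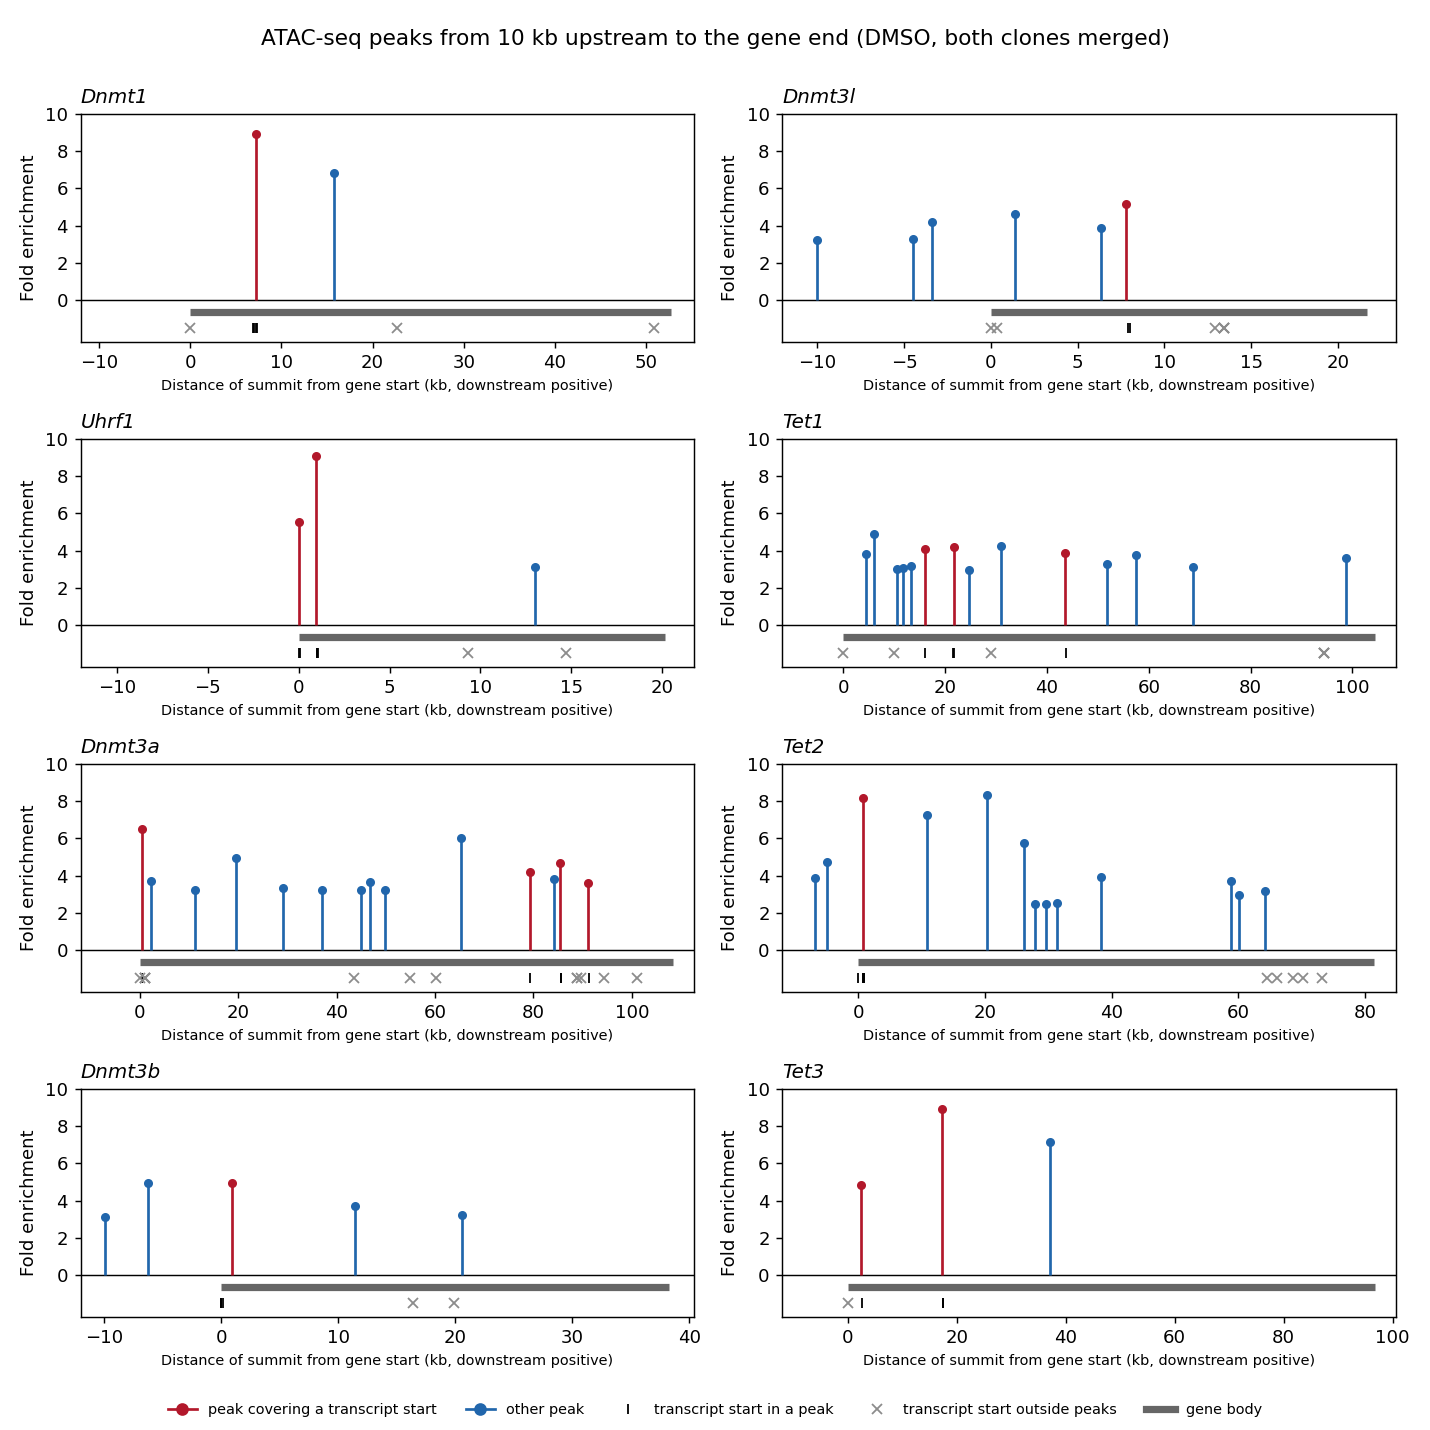
Fold enrichment of the 60 peaks (y axis) against the distance of the summit from the gene start (x axis, kb, downstream positive), one panel per gene. Red stems are the 15 peaks that cover a transcript start, blue stems are the other 45, bars are gene bodies, ticks are transcript starts inside a peak and crosses those outside. The red stems lie at the left edge of the gene body in Uhrf1, Dnmt3b and Tet2, and further inside in Dnmt1, Dnmt3l, Tet1 and Tet3. In Dnmt3a, 1 of 4 lies at the left edge and the others from 79.3 to 91.1 kb inside.

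The maintenance genes Dnmt1 and Uhrf1 had leading start peaks near the middle of the genes with a start peak in fold enrichment. Dnmt1 lies on the minus strand at chr9:20907209-20959888. Its outermost start, that of Dnmt1-202, a transcript of 1501 codons, had no peak, and the nearest peak lay 6559 bp away. Oocytes are known to use a first exon upstream of the one used in somatic cells. The starts of Dnmt1-201, Dnmt1-203, Dnmt1-205 and Dnmt1-207, from 6.91 to 7.28 kb further downstream, all lay inside the peak chr9:20952377-20953329. This peak had 39 fragments over its summit (27.7 to 53.3) and a fold enrichment of 8.93 (6.41 to 12.1). Among the 14609 genes with a peak at a transcript start, ranked by their start peak with most fragments, this fold enrichment was at percentile 52.9 and the number of fragments at percentile 57.5. The only other peak of Dnmt1, chr9:20943710-20944398 in intron 1 of Dnmt1-201, had 21 fragments and a fold enrichment of 6.83 (4.35 to 10.3). With 2 peaks in 62.7 kb, or 0.319 per 10 kb, Dnmt1 had few peaks for its length, at percentile 25.6 of all protein-coding genes.

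At Uhrf1, on the plus strand at chr17:56303321-56323486, both clusters of protein-coding starts were accessible. The peak chr17:56302607-56303538 covered the gene start and the start of Uhrf1-203, with its summit 28 bp downstream of the gene start. It had 28 fragments and a fold enrichment of 5.53 (3.74 to 7.91). The second peak, chr17:56303925-56304692, covered the starts of Uhrf1-202, Uhrf1-204 and Uhrf1-207 and had 46 fragments (33.7 to 61.4). Its fold enrichment of 9.07 (6.69 to 12) was the highest of the 60 peaks, and its interval overlapped that of the first peak. It was at percentile 54.5 by fold enrichment and 66.2 by fragments. Transcripts of 774 and of 782 codons start in each of the peaks. The remaining peak of Uhrf1, in intron 10, rested on 6 fragments and had a fold enrichment of 3.15.

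Among the genes of de novo methylation, Dnmt3a had the most start peaks. Dnmt3a lies on the plus strand at chr12:3806007-3914443, and 4 separate peaks covered transcript starts. The first, chr12:3806057-3806948, began 50 bp after the gene start and covered the starts of Dnmt3a-202 and Dnmt3a-206. It had 27 fragments (17.8 to 39.3) and a fold enrichment of 6.48 (4.35 to 9.32). The starts of the full-length transcripts of 908 codons, Dnmt3a-201 and Dnmt3a-218, lay 82 and 212 bp beyond its downstream edge. The gene start and both of these starts thus count as without a peak, though within 250 bp of one.

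The shorter form DNMT3A2, which is known as the main form in mESCs, starts from an internal promoter. Its transcripts Dnmt3a-203 and Dnmt3a-205, of 689 codons, start 85.7 kb into the gene and lay inside the peak chr12:3891122-3892119. This peak had 18 fragments (10.7 to 28.4) and a fold enrichment of 4.66 (2.86 to 7.22). Its interval overlapped that of the peak at the upstream promoter, and the difference between the 2 promoters was not tested. Weaker peaks covered the starts of Dnmt3a-213, with 12 fragments and a fold enrichment of 4.17, and of Dnmt3a-214, with 7 fragments and a fold enrichment of 3.60. Elsewhere in Dnmt3a, the highest fold enrichments were 6.02 in intron 4 with 19 fragments, 4.96 in intron 1 with 11 fragments and 3.83 in intron 6 with 16 fragments. In all, the range of Dnmt3a held 14 peaks, which is percentile 96.5 of all genes, or 1.18 per 10 kb, which is percentile 80.7.

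At Dnmt3b, on the plus strand at chr2:153649450-153687730, all 10 protein-coding transcripts start within 167 bp of the gene start and lay inside 1 peak, chr2:153648931-153650603. Its summit was 966 bp downstream of the gene start, in intron 1. With 16 fragments (9.15 to 26.0) and a fold enrichment of 4.97 (2.97 to 7.89), the peak was at percentile 14.3 among leading start peaks. The peak also covered the start of the antisense gene Dnmt3bos, which lay 130 bp from the summit, while the nearest start of Dnmt3b, that of Dnmt3b-207, lay 799 bp from it. Which of these starts the signal belongs to cannot be told apart. The 120 bases around the summit are shown for comparison with the starts above, since accessibility was highest here and not at the start. They held 4 CG dinucleotides, the TATA box TATAAA and, on the opposite strand, CCGGAAG, the core of ETS factor sites.
Dnmt3b summit, chr2:153650356-153650475, plus strand: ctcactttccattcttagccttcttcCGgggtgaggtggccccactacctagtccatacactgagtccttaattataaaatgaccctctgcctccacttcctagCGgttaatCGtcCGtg

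The other peaks of Dnmt3b were at or below this level. The peak 6.23 kb upstream of the gene start had a fold enrichment of 4.95 with 10 fragments, and the peaks in intron 2 and intron 9 had 3.70 and 3.24 with 7 and 6 fragments. A further peak, whose summit was 9.89 kb upstream, crossed the border of the range.

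Dnmt3l, on the plus strand at chr10:78041947-78063622, had its start peak 7.77 kb inside the gene. The starts of Dnmt3l-204 and Dnmt3l-205, which lie inside the gene Aire, transcribed in the opposite direction, were 1238 and 898 bp from the nearest peak. Dnmt3l-201 and Dnmt3l-208, which like Dnmt3l-205 encode 421 codons, start 7.89 and 8.01 kb into the gene and lay inside the peak chr10:78049108-78050134. It had 14 fragments (7.65 to 23.5) and a fold enrichment of 5.17 (2.98 to 8.44). The 3 transcripts of 126 codons that start 13.4 kb into the gene lay 5201 bp from the nearest peak. Promoters inside and upstream of Dnmt3l are known to be used in male and female germ cells. The peak chr10:78043185-78043967, in intron 1 of Dnmt3l, covered the start of Aire, a gene of immune tolerance, with 13 fragments and a fold enrichment of 4.64. The next highest peaks lay 3.41 kb upstream of Dnmt3l inside Aire, with a fold enrichment of 4.19 and 12 fragments, and in intron 2, with 3.87 and 11 fragments. With 6 peaks in 31.7 kb, or 1.89 per 10 kb, Dnmt3l was the densest of the 8 genes, at percentile 95.2 of all genes, although the first of these peaks had its summit just outside the range.

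The TET genes differed in where and how strongly their starts were accessible. At Tet1, on the minus strand at chr10:62804570-62908996, the gene start was 4227 bp from the nearest peak. The start of Tet1-206, a transcript of 2039 codons, was 582 bp from one, and that of Tet1-201, of 2007 codons, was 1864 bp from one. The peak chr10:62885603-62887654 covered the starts of Tet1-207 and Tet1-210, which GENCODE lists with 47 codons each. The start of Tet1-207 is also that of the only curated RefSeq transcript of Tet1. This peak was 2052 bp wide and had 24 fragments (15.4 to 35.7). Its fold enrichment was 4.19 (2.75 to 6.16), at percentile 8.31, while its number of fragments was at percentile 32.5. The background expected at its summit was 4.96 fragments, against a median of 2.90 at the leading start peaks of protein-coding genes.

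Further start peaks of Tet1 covered the start of Tet1-209, a transcript of 47 codons, and that of Tet1-202, which has no coding sequence. The first had 24 fragments and a fold enrichment of 4.08, the second 10 fragments and a fold enrichment of 3.87. The highest values elsewhere were 4.88 with 20 fragments at 6.02 kb from the gene start, 4.26 with 10 fragments at 31.0 kb, in intron 2, and 3.82 with 12 fragments at 4.37 kb. Each of the 14 peaks of Tet1 had a −log10 q below 10, a value that 22.2% of all peaks reached or passed. The background was between 4.40 and 5.96 fragments at the 6 peaks whose summits lay from 10.6 to 24.6 kb from the gene start, and at most 3.30 at the others. The part of this background in the fold enrichments of Tet1 was not tested.

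Tet2 had the strongest peaks of the 8 genes by number of fragments. It lies on the minus strand at chr3:133463679-133545139, and the peak chr3:133543893-133545251 covered its gene start and 4 further starts, including those of Tet2-201 and Tet2-204, of 1912 and 1920 codons. The peak had 58 fragments (44 to 75), at percentile 77.2, and a fold enrichment of 8.13 (6.20 to 10.5), at percentile 45.1. It also covered the start of the antisense gene Gm42567, 654 bp from the summit, and the start of Tet2-201 was 53 bp from the summit. In the first intron, 3 more peaks reached a −log10 q of 10. These were chr3:133532518-133534569 with 65 fragments and a fold enrichment of 7.25 (5.62 to 9.21), chr3:133524211-133525394 with 45 fragments and 8.30 (6.11 to 11), and chr3:133518341-133519276 with 32 fragments and 5.75 (3.99 to 8.04). The intervals of the start peak and of each of the first 2 intron peaks overlapped. The background expected at the summit was 6.26 fragments at the start peak and 8.10 at the first of these intron peaks. The median at the leading start peaks of protein-coding genes was 2.90. The part of this background in the fragment numbers of Tet2 was not tested. The summits of the 3 intron peaks lay 10.8, 20.4 and 26.2 kb from the gene start. In all, Tet2 held 13 peaks, or 1.42 per 10 kb, at percentile 87.3.

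The 120 bases around the summits of the first 2 intron peaks are shown because, among the peaks of the 8 genes that cover no transcript start, these had the most fragments. In contrast to the 25 CG dinucleotides before Tet2-201, each held 1.
Tet2 intron 1, 10.8 kb, chr3:133534290-133534409, minus strand: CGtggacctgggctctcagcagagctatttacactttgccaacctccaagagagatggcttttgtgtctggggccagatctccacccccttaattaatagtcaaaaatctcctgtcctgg
Tet2 intron 1, 20.4 kb, chr3:133524653-133524772, minus strand: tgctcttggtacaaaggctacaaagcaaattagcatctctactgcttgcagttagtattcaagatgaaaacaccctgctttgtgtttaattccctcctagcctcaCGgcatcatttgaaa

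Tet3, on the minus strand at chr6:83362373-83459084, had 2 start peaks, and neither covered the gene start, from which the nearest peak was 1555 bp away. Forms of TET3 with and without a CXXC domain, which binds unmethylated CG, are known to arise from different promoters. The peak chr6:83455656-83457529 covered the start of Tet3-203, of 1803 codons, with 17 fragments and a fold enrichment of 4.84 (2.93 to 7.59). The peak chr6:83440974-83442228 covered the starts of Tet3-201, Tet3-202 and Tet3-205, of which Tet3-202 has 1668 codons. It had 29 fragments (19.4 to 41.6) and a fold enrichment of 8.93 (6.08 to 12.7), so that the intervals of both peaks overlapped. This second peak also covered the start of the non-coding gene B230319C09Rik, transcribed in the opposite direction, at 35 bp from the summit, beside 112 bp for Tet3-201. The third peak of Tet3, chr6:83421385-83422625 in intron 3, had 17 fragments and a fold enrichment of 7.14 (4.33 to 11.2). At 0.281 peaks per 10 kb, Tet3 was the gene with the fewest peaks for its length, at percentile 23.2.

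**Figure D2:**
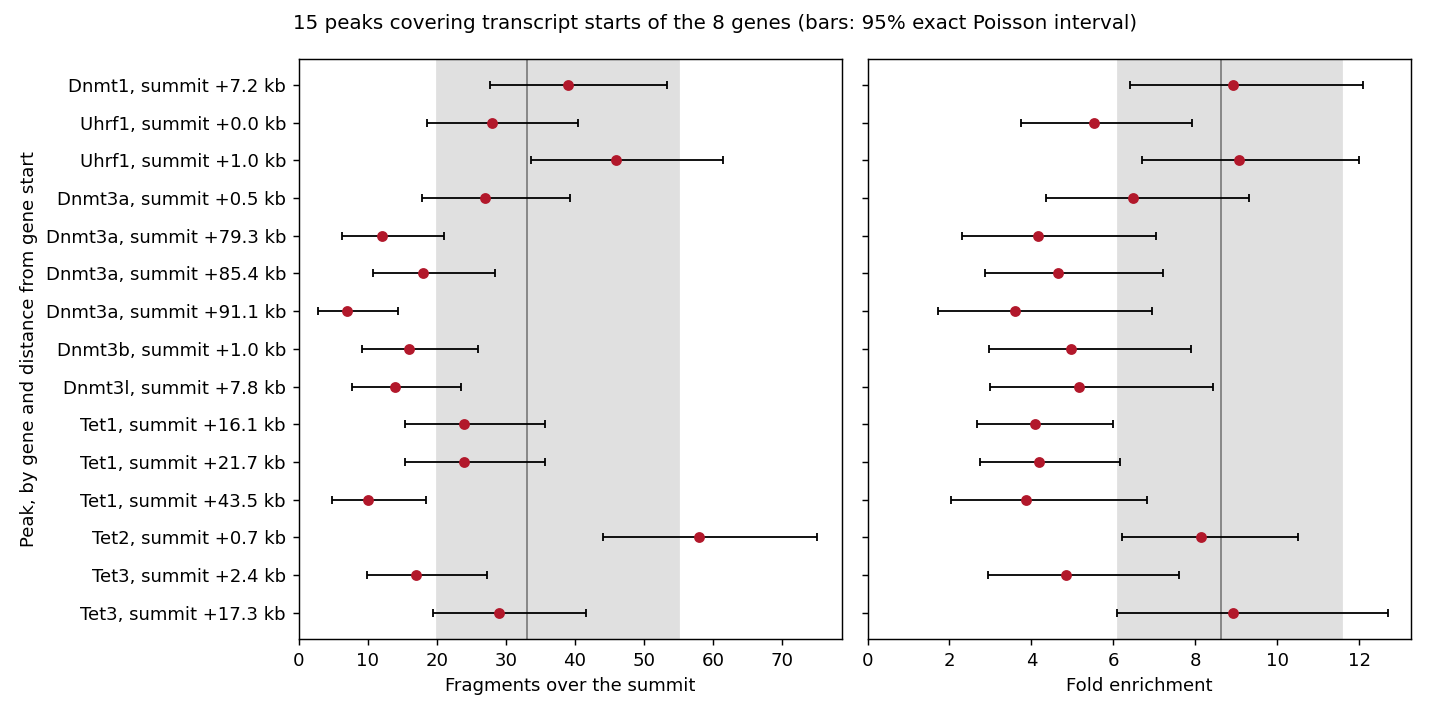
Fragments over the summit (left) and fold enrichment (right) of the 15 peaks covering transcript starts, by gene and distance of the summit from the gene start in kb, with 95% exact Poisson intervals. The grey band spans the quartiles and the grey line the median of the leading start peaks of 14609 protein-coding genes, which are 6.10, 8.62 and 11.6 for fold enrichment and 20, 33 and 55 for fragments. In fold enrichment 10 of the 15 peaks lie below the band, those of Dnmt3b, Dnmt3l and Tet1, 3 of Dnmt3a and the first of Uhrf1 and of Tet3, and Tet2 has the most fragments. The 15 include peaks that do not lead in their gene, unlike the band. Of the leading peaks, those of Dnmt3b, Dnmt3l and Tet1 lie below it.

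Ordered by the fold enrichment of the leading start peak, the genes ran from Uhrf1 with 9.07 over Dnmt1 and Tet3 with 8.93 each, Tet2 with 8.13, Dnmt3a with 6.48, Dnmt3l with 5.17 and Dnmt3b with 4.97 to Tet1 with 4.19. The intervals of all neighbours in this order overlapped, as did those of 25 of the 28 pairs. The exceptions were Tet1 against Uhrf1, Dnmt1 and Tet2. By fragments, 9 of 28 pairs had intervals apart, and all of these had Dnmt1, Uhrf1 or Tet2 on the higher side. The median of the 8 leading peaks was 7.31, beside 8.62 over all genes with a start peak, and 5 of the 8 were below 8.62. A start peak with a −log10 q of 10 or more was found in 5 genes, Dnmt1, Uhrf1, Dnmt3a, Tet2 and Tet3, and in 50.5% of protein-coding genes. The share among genes with at least 5 transcripts, as all of the 8 have, was not computed. Separate peaks at more than 1 transcript start were found in 4 of the 8 genes, Uhrf1, Dnmt3a, Tet1 and Tet3, beside 18.4% of genes with at least 5 transcripts. Both values take in all annotated transcripts. Of the start peaks of Dnmt3a, only that of Dnmt3a-203 and Dnmt3a-205 covered a start of the basic set, a subset of GENCODE transcripts. None of those of Tet1 did.

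**Figure D3:**
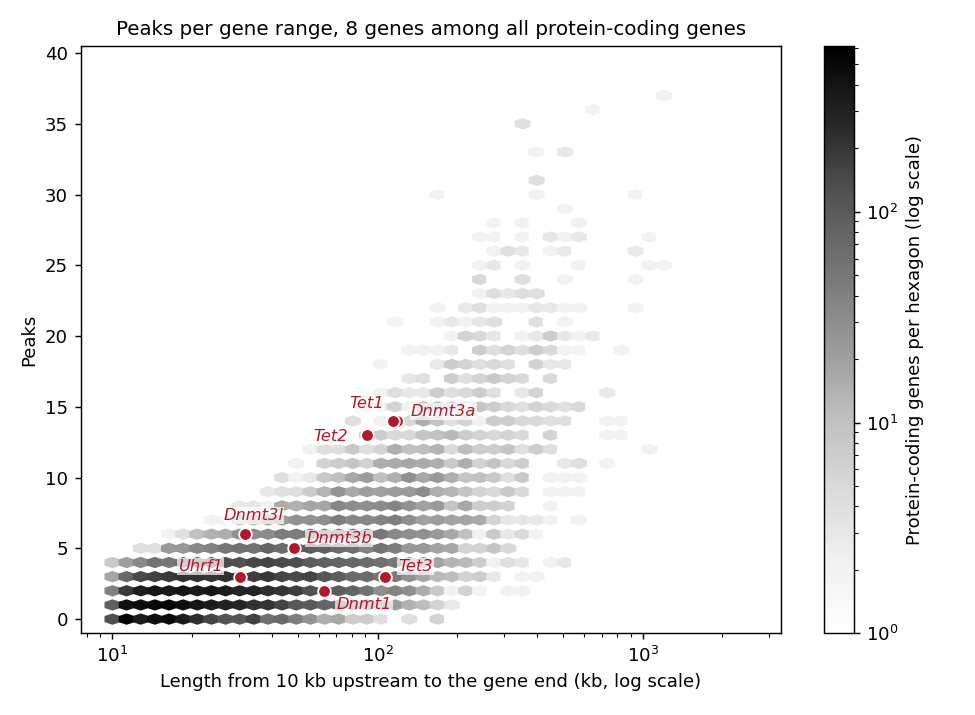
Number of peaks (y axis) against the length of the range from 10 kb upstream to the gene end (x axis, kb, log scale) for all protein-coding genes (grey, genes per hexagon, log scale) and the 8 genes (red). Genes with more than 40 peaks, 65 in all, are not shown. Tet1 and Dnmt3a have 14 peaks each and Tet2 has 13, while Dnmt1 has 2 and Tet3 has 3.

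Of the 60 peaks, 46 had their summit in an intron, 7 upstream of the gene, 5 in a non-coding exon and 2 in a coding exon. The 45 peaks that covered no transcript start had a median fold enrichment of 3.64 and a median of 11 fragments, against 4.97 and 24 for the 15 start peaks. A −log10 q of 10 or more was reached by 11 of the 60 and 5 of the 45, beside 22.2% of all peaks, and of these 5, 3 were in Tet2, 1 in Dnmt1 and 1 in Tet3. With 10 or fewer fragments at 23 of the 60 peaks, many of the weaker ones lay near the limit of the list, where the lowest number was 6. Such low numbers are common in the list, whose median was 9 fragments, and are not particular to these genes. The 301 bp around each summit were searched in mm10. Of the 60 windows, 0 had a copy elsewhere that matched 50% or more of the window at 90% identity or higher. The window of the Tet2 start peak had 2 such matches at its own place, beside 1 for every other window.

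Base composition was compared between start peaks and other peaks, without a test. In the 301 bp around the summit, GC content had a median of 63.1% at the 15 start peaks and 49.8% at the other 45. The ratio of observed to expected CG dinucleotides, which is low in most of the genome and close to 1 in CpG islands, had medians of 0.572 and 0.210. A ratio of at least 0.6 was found at 6 of 15 start peaks and 0 of 45 other peaks. The shares of all peaks and of all start peaks that reach it were not computed. Over all peaks, GC content had a median of 50.5%, and the ratio a median of 0.25 and an upper quartile of 0.457. The 45 other peaks were thus close to the usual peak of the list. The ratio was highest, at 1.19, at the start peak of Tet2, followed by 0.946 at the upstream start peak of Tet3, 0.847 at the second peak of Uhrf1 and 0.823 at Dnmt1. At Dnmt3l it was 0.223, and at the internal start of Dnmt3a 0.572. For the leading start peaks of protein-coding genes, the quartiles were 0.598 and 0.914 around a median of 0.777. The lower quartile of these lay close to 0.6, whereas the 15 include peaks that do not lead in their gene. The leading peaks of Dnmt3b, Dnmt3l, Tet1 and Tet3 had ratios below the lower quartile. Start sequences are known to be richer in CG dinucleotides throughout the genome, so this contrast is not particular to these genes. Whether these dinucleotides were methylated was not measured.

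**Figure D4:**
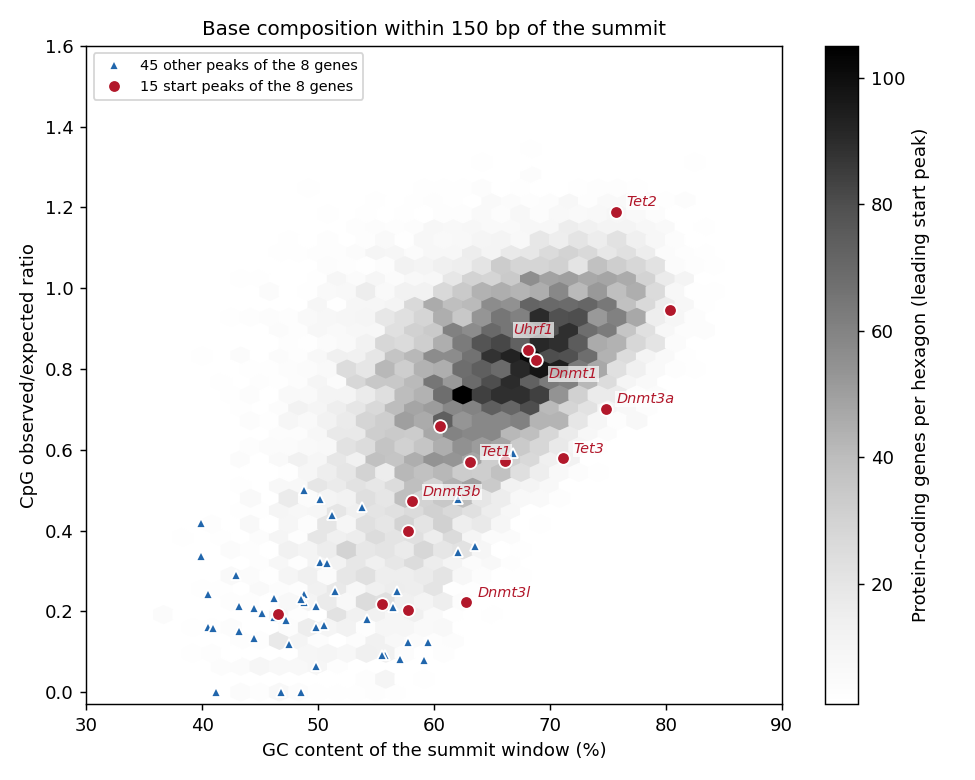
Observed over expected CG dinucleotides (y axis) against GC content in percent (x axis) within 150 bp of the summit. Red circles are the 15 start peaks, with the leading peak of each gene named, blue triangles are the other 45 peaks, and grey hexagons count protein-coding genes by their leading start peak. Tet2 lies at the upper edge and Dnmt3l among the other peaks.

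Short motifs were searched on both strands of the same windows, and matches are descriptions of sequence only. The GC box GGGCGG occurred in 10 of 15 start peaks, beside 66.9% of the leading start peaks of protein-coding genes. It also occurred in 5 of the 45 other peaks, beside 19.4% of all peaks. The shares set beside start peaks below are also of leading start peaks, whereas the 15 include peaks that do not lead in their gene. CCAAT occurred in 6 start peaks, beside 34.8%, and in 20 other peaks, beside 36.1% of all peaks. GCATGCG occurred in 3 start peaks, those of Dnmt1, Uhrf1 and Tet2, beside 5.56%, and in 0 other peaks, beside 1.80% of all peaks. For TTTGGCG and TTTCCCG, parts of E2F sites, the windows were 1, at Dnmt1, and 2, at the first peak of Uhrf1 and the internal start of Dnmt3a, beside 2.57% and 5.44%. TGACGTC, part of the cAMP response element, occurred only at Tet2 among the start peaks, beside 4.92%, and TATAAA only at Dnmt3b, beside 3.96%. CACGTG was found in 2 start peaks, that of Dnmt3l and the upstream one of Tet3, beside 9.40%, and CCGGAAG in 2, beside 15%. The CACGTG printed before Dnmt3a-205 lies outside the window around the summit of its peak. ATTTGCA, part of the octamer bound by OCT4, was in 0 of 15 start peaks, beside 2.81%, and in 3 of 45 other peaks, beside 6.04% of all peaks.

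The 34 other genes of the pathway, a list of maintenance partners, base repair enzymes and TET partners, methyl-CpG readers and CXXC proteins, are set beside the writers and erasers. A peak covered a transcript start in 34 of 34 and the gene start in 26 of 34. Over all protein-coding genes these shares were 66.6% and 59.2%. Among genes with at least 5 transcripts, which not all of the 34 have, they were 89.2% and 76.2%. The gene start was covered in 7 of 8 maintenance partners, 12 of 15 repair genes and TET partners, 4 of 7 readers, 2 of 3 CXXC proteins and in the methyltransferase relative Trdmt1. A peak only at another start was found, among others, for Lig1, Smug1, Xrcc1, Cxxc5, Mbd1, Zbtb4 and Kdm2b. Among gene start peaks, fold enrichment was highest for Trdmt1, which methylates tRNA, with 17.6 and 75 fragments, and for Gadd45a, a stress gene linked to demethylation, with 15.2 and 140 fragments. It was lowest for Ogt, the transferase of N-acetylglucosamine that binds TET proteins, with 3.45 and 9 fragments, and for Dppa3, a germ line factor that limits UHRF1, with 4.50 and 26 fragments. The leading start peaks of the 34 genes had a median fold enrichment of 9.20, beside 7.31 for the 8 writers and erasers and 8.62 for all genes. The difference between the lists was not tested.

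**Figure D5:**
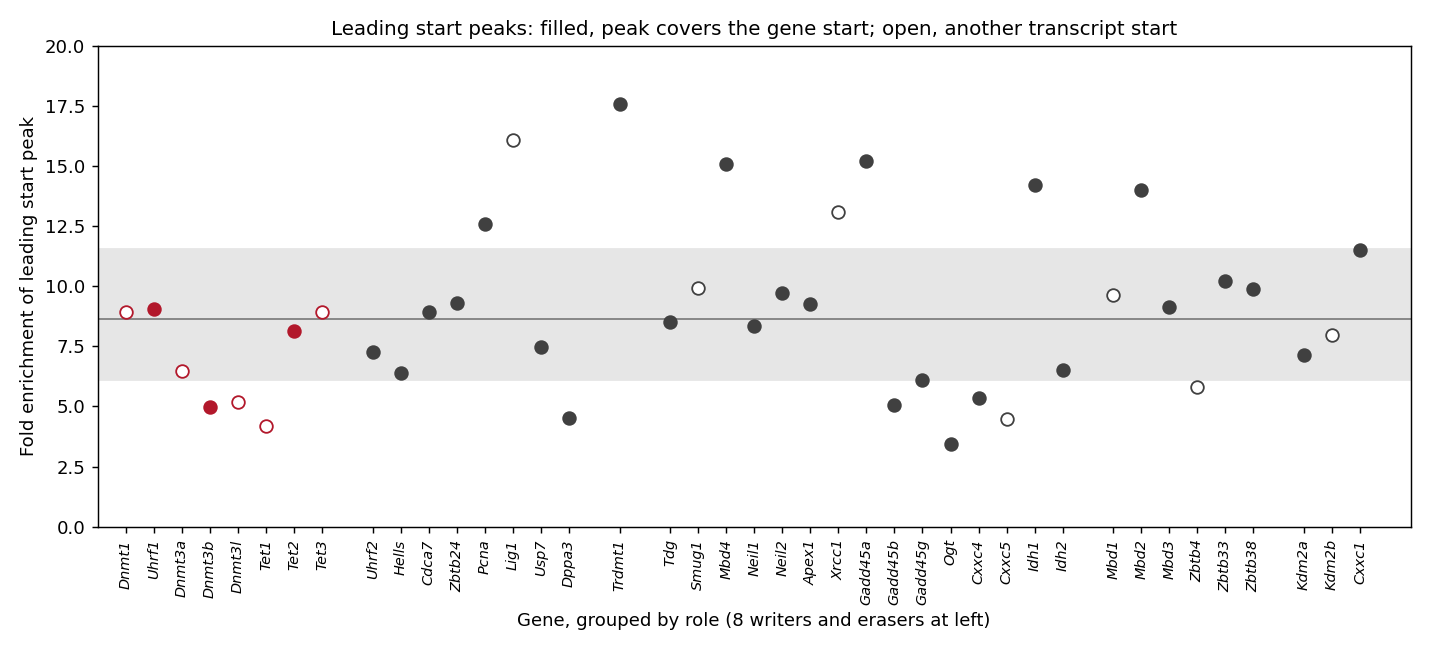
Fold enrichment of the leading start peak (y axis) of the 8 writers and erasers (red, left) and 33 of the 34 other pathway genes (dark grey), grouped by role along the x axis. Filled circles have a peak covering the gene start, open circles a peak at another transcript start only, and the grey band and line give the quartiles and the median of 14609 genes. The red circles lie between 4.19 and 9.07, and the dark ones reach from 3.45 to 17.6.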

How the data were processed

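Per the labels and the methods of the study, technical replicates were merged, reads were aligned to mm10 with STAR 2.7.10, which placed each read that matched several locations at one best location, duplicates were removed with Picard 2.26.0, fragments were shifted for the Tn5 cut and peaks were called with MACS2 2.2.6. SAMtools 1.14 and bedtools 2.30.0 are also named in the processing notes of the submitters. The authors deposited 1 peak list for both samples merged, with a fold enrichment, a −log10 p-value and a −log10 q-value for the summit of each peak. The deposited score, which was not used, equals the −log10 p-value times 10 without decimals in 116695 of 116782 peaks. The lowest −log10 q-value is 1.30.

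Genes and transcripts were those of GENCODE vM21, and the reference genome was GRCm38. Fragment numbers and backgrounds were solved for by setting the MACS2 expressions for both values equal to those deposited, and came out whole, within 0.001 in −log10 p-value, for 116778 peaks. On 5000 simulated peaks 100% of the numbers were recovered, and on simulated peaks at known starts 207 of 207 covered starts were found. A start counted as covered when its base lay inside a peak. The leading start peak of a gene is the one with most fragments. Percentiles refer to protein-coding genes. Repeat copies were searched with BLAST 2.17.0, and the software was Python 3.11.15, SciPy 1.17.1, NumPy 2.4.6, pandas 2.3.3, pysam 0.24.0 and Matplotlib 3.10.9.

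The genes, lists, motifs and alternatives were chosen with earlier results of these data known. Named were the 8 genes in full, for each the peaks at its gene start and other transcript starts, the 3 other peaks of highest fold enrichment and any other gene whose start a peak covers, and from the pathway list the genes without a gene start peak and the 2 highest and 2 lowest with one. In the pathway list, 1 gene is counted but neither plotted nor reported individually. The alternatives were a stricter q-value, other distances, transcript sets, ranges and sequence windows, and, added after the data were seen, curated RefSeq starts and the count of genes with any start covered.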

Additional observations from a re-analysis of the deposited data

How the results depend on the processing

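Of 28 other settings, 19 left the result within 1.5 times its count or within its 95% interval, as did 5 of 7 that were added after seeing the data. With a −log10 q of 10 or more, the list left 19 of 77 transcript starts covered, 11 of 60 peaks, 5 of 8 genes with a covered start (without Dnmt3b, Dnmt3l and Tet1), 2 of 8 with a gene start peak (without Dnmt3b), 45% of protein-coding gene starts and a median of 43 fragments at 2 gene starts, by its construction. The share of gene starts with a peak, 59.2% (58.6 to 59.9, Wilson interval), was 57.4% with a summit within 500 bp and 62.9% with a peak within 250 bp. The summit rule left 2 of the 8 genes with a gene start peak, Uhrf1 and Dnmt3a, so that Dnmt3b and Tet2 lost theirs, and left Dnmt3b without any covered start. The rule of 250 bp gave 4, adding Dnmt3a. Transcript starts covered were 25 of 34 in the basic set of GENCODE, 21 of 52 after merging and 25 of 32 for curated RefSeq transcripts, which are other denominators. In the basic set Tet1 had no covered start, and 7 of 8 genes had one. A range from 50 kb upstream held 94 peaks. No paired analysis was possible because the list combines the 2 clones and neither can be left out of it. Most intervals of the leading start peaks overlap, and the order of the genes was not tested.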
